A study of Mus musculus with 33 samples.

Results

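The potassium channel genes described here are the protein-coding mouse genes whose symbols begin with Kcn, the family that encodes potassium channel pore subunits and their accessory subunits. Of 54752 genes in the forebrain files, 93 had such a symbol and a protein-coding transcript, and the 77 of these with a mean of at least 1 CPM (a count scaled to a library of 1000000 counts) over the 21 forebrain libraries were kept. Around that limit, Kcnq1 at 1.00, Kcne4 at 1.11 and Kcnj14 at 1.33 CPM were the members just inside, and Kcnh8 at 0.999, Kcne2 at 0.891 and Kcnj15 at 0.730 CPM the genes just outside. A limit of 0.5 CPM would have kept 81, and 74 of the members reached 1 CPM in every forebrain library. The mean was taken over all forebrain libraries together. Kcnq1 was the member whose place depended on 1 group, with a mean of 0.928 CPM without the B6N libraries and 0.979 without the B6J libraries.

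Potassium channels let potassium ions leave the cell and thereby set the resting potential of neurons, end action potentials and limit how often a neuron fires. Pore subunits are grouped by what opens them: voltage, intracellular calcium or sodium, or, for inward rectifiers and two-pore channels, little more than the membrane potential and regulatory lipids and proteins. Accessory subunits, such as the Kv-beta and KChIP proteins, change the gating and surface delivery of the pores they bind. The Kv3 genes, of which Kcnc1, Kcnc2 and Kcnc4 are described here, are best known in brain for the fast repolarization of fast-spiking interneurons.

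All mice were 8 weeks old and differed in substrain and in n-Tr20, a brain-specific arginine tRNA gene that is mutated in C57BL/6J (B6J) and intact in C57BL/6NJ (B6N). The 5 forebrain groups of 4 mice were B6N n-Tr20 -/- (B6N knockout), B6J n-Tr20 -/- (B6J knockout), B6J, B6J with a transgene carrying the B6N copy of n-Tr20 (transgenic) and B6N. Transgenic mouse 4 was sequenced in both forebrain batches, and all B6J knockouts were in batch 2 while every other forebrain library was in batch 1. B6N knockout and B6N hippocampus gave 3 RNA and 3 ribosome footprint libraries each. The labels do not give the sex of the mice, the transgene's promoter or whether hippocampus RNA and footprints with the same number came from 1 mouse. For the hippocampus RNA the file headers name a B6JN background where the labels name B6N. Nothing in the labels states that libraries of a group came from separate litters, so the p-values measure the spread between these libraries.

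The forebrain libraries, made after removal of ribosomal RNA, held 14.7 to 38.5 M estimated counts (M, counts in units of 1000000). The poly(A)-selected hippocampus RNA libraries held 35.8 to 60.4 M counts and the footprint libraries 7.62 to 17.9 M. The biological coefficient of variation was 7.04% in the batch 1 forebrain libraries, 14.0% in hippocampus RNA and 12.9% in footprints, so smaller differences could be resolved in forebrain. All 8 neuronal markers that were checked, among them Rbfox3 and Snap25, were expressed in both tissues. Of the B6J knockouts, mice 1 to 3 had Xist at 334 to 367 CPM and mouse 4 at 2.03 CPM, so the group held both sexes. Every other forebrain library had Xist at 0.663 to 1.75 CPM and Ddx3y, a Y-linked gene, at 49.6 to 65.4 CPM, as in males. Each B6J knockout comparison thus set a group of mostly Xist-positive mice against groups with none, and the part of sex was not tested. In hippocampus RNA, knockout sample 1 had Xist at 1258 and Ddx3y at 0.340 CPM, while the other 2 knockout and 3 B6N samples had Xist at 0.238 to 2.32 and Ddx3y at 45.7 to 55.8 CPM, so that knockout group held both sexes too. In footprints Ddx3y was at 45.1 CPM in knockout sample 1 and at 67.1 to 107 CPM in the other 5 samples. Values for single libraries are given below as scaled CPM, which are CPM of the library total after scaling by the trimmed mean of M values (TMM), in the order of the mouse numbers. Such values are of whole tissue, in which fewer cells of a type and less RNA per cell cannot be told apart.

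Before any comparison of groups, the members spanned a range of forebrain levels per length from 0.252 TPM (transcript abundance per length, scaled to a library total) for Kcne4 to 51.2 TPM for Kcnab2, with a median of 4.21 TPM. The 27 voltage-gated pore genes made up 38.8% of the members' summed TPM. Among the highest of them were Kcnq3 at 17.1 TPM, a Kv7 subunit of the neuronal M current, and Kcnh7 at 16.3 TPM, an ERG-type channel. The Kv3 genes Kcnc2, Kcnc1 and Kcnc4 stood at 14.3, 8.86 and 4.21 TPM. The 12 accessory genes held 24.3%, led by the Kv-beta genes Kcnab2 and Kcnab1 at 51.2 and 20.8 TPM and the KChIP gene Kcnip4 at 17.8 TPM. The 7 calcium- or sodium-activated genes held 12.5%, with the large-conductance BK pore Kcnma1 at 34.2 TPM and the sodium-activated channels Kcnt1 and Kcnt2 at 13.1 and 12.8 TPM.

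The 13 inward rectifiers held 12.5% of the summed TPM, with Kcnj3 at 19.0 and Kcnj9 at 13.1 TPM, which encode subunits of G protein-gated channels, and Kcnj4 at 17.1 TPM. The 9 two-pore genes, which carry background current, held 6.45% and were led by Kcnk1 at 16.6, Kcnk2 at 9.30 and Kcnk9 at 4.54 TPM. The 9 silent subunits, which form no channel alone and modify other voltage-gated pores, held 5.51%, with Kcnv1 at 12.8, Kcnf1 at 9.33 and Kcns2 at 3.62 TPM. Per class, 27 of 30 voltage-gated candidates, 12 of 16 accessory, 7 of 8 calcium- or sodium-activated, 13 of 15 inward rectifier, 9 of 14 two-pore and 9 of 10 silent candidates were members. The two-pore class thus had the smallest share of its genes above the limit.

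**Figure D1:**
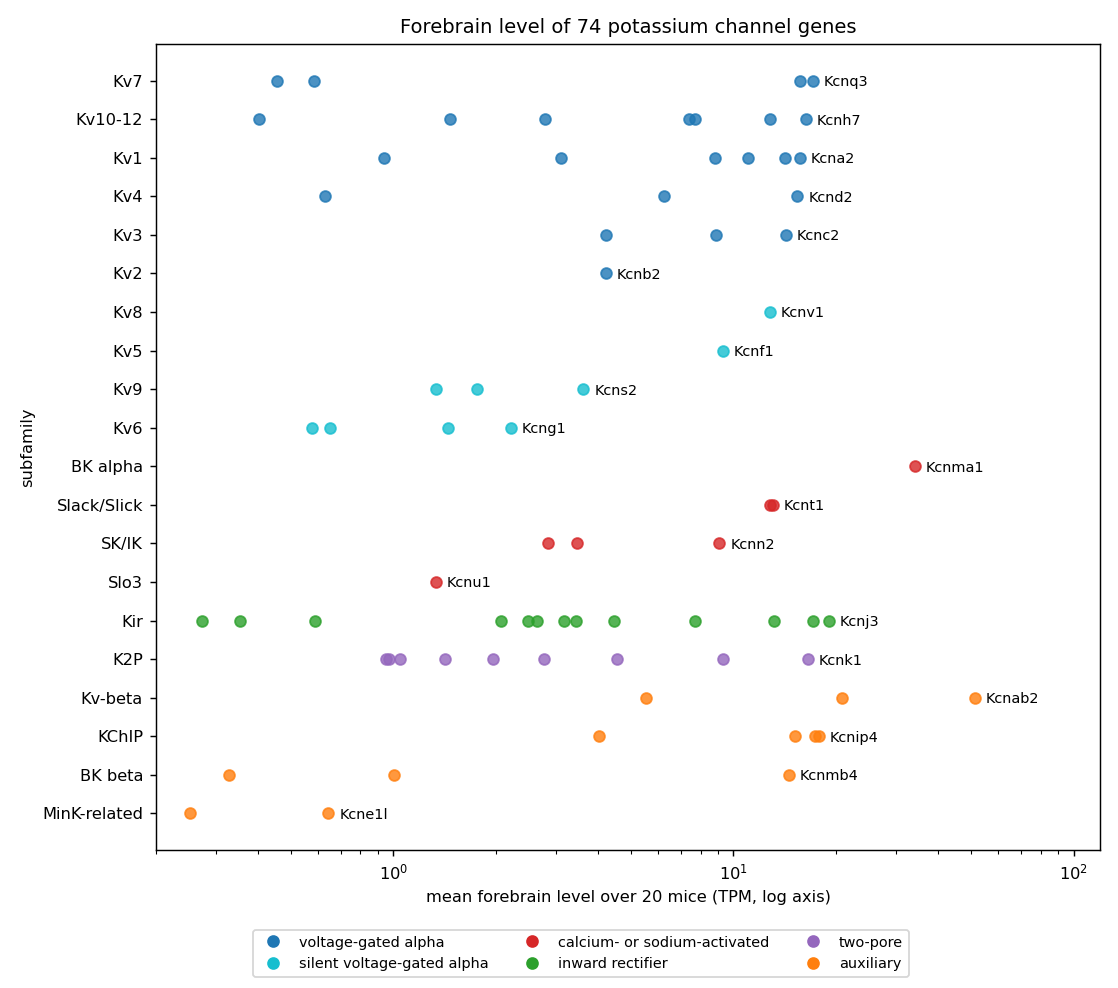
Mean forebrain level of 74 of the members over 20 mice, in TPM on a log axis, with 1 row per subfamily and 1 point per gene coloured by class. The highest gene plotted in each subfamily is named, and Kcnab2 at 51.2 and Kcnma1 at 34.2 TPM lie furthest right.

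Between tissues, B6N hippocampus RNA over B6N forebrain RNA gave a median CPM ratio of 1.08 for the members and 1.09 for the 18843 genes at 1 CPM or more in B6N forebrain. Among the highest ratios were those of Kcng2 at 6.93 and Kcnj10 at 6.53, and the ratio was lowest for Kcnh5 at 0.117, Kcnh4 at 0.267 and Kcnj5 at 0.271. Kcng2 is a silent subunit, and Kcnj10 the inward rectifier of astrocytes known as Kir4.1. The tissues were prepared by different library methods and counted by different pipelines, so these ratios are a description of the libraries with no test.

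Without n-Tr20, the B6N forebrain was compared between 4 knockout and 4 B6N mice. Kcnt2, Kcnma1 and Kcnh7 rose in the knockouts, and the accessory genes Kcnab3 and Kcnip2 fell, all by less than 1.3-fold. These 5 of 77 members passed an adjusted p of 0.05 (edgeR quasi-likelihood, p-values adjusted by Benjamini-Hochberg over the whole table), where 1.91% of all 25151 genes tested did so, 1.11% higher and 0.807% lower. Of the 77 members, 38 had a fitted change above 0 and 39 below, and the median log2 fold change was -0.01, against -0.00 for all genes.

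Kcnt2, at chr1:140245657-140614045 of GRCm38, encodes a sodium-activated potassium channel known as Slick. It had 78.5, 78.3, 77.4 and 73.9 scaled CPM in B6N knockout forebrains, against 66.6, 61.4, 64.7 and 67.4 in B6N forebrains. Every knockout library was above every B6N library, and the fold change was 1.18 (log2 0.24 ± 0.04 SE, adjusted p = 0.000496 by edgeR). The call held with each of the 8 libraries left out in turn and under every other setting tried. Its most abundant transcript, Kcnt2-203, took 58.2% ± 1.9 of the gene's TPM in knockouts and 56.3% ± 1.0 in B6N (SD, n = 4 each).

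Kcnma1, at chr14:23292288-24005110, is the pore of the BK channel, which opens with calcium and depolarization together. It had 366, 381, 380 and 386 scaled CPM in B6N knockouts, against 343, 346, 347 and 338 in B6N mice. The groups did not overlap, and the fold change was 1.10 (log2 0.14 ± 0.03 SE, edgeR adjusted p = 0.0194). Without B6N mouse 1 or 4 or knockout mouse 2 or 3 the adjusted p was 0.0609, 0.0724, 0.0620 and 0.0690, so the call rested on those libraries. Kcnh7, at chr2:62693410-63184287, had 221, 237, 235 and 224 scaled CPM in knockouts, against 202, 197, 208 and 212 in B6N mice. Its groups did not overlap either, with a fold change of 1.12 (log2 0.16 ± 0.04 SE, edgeR adjusted p = 0.0271), and the call was lost without B6N mouse 1, 2 or 3 or knockout mouse 2 or 3, at adjusted p of 0.0919, 0.111, 0.0575, 0.117 and 0.113.

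Kcnab3, at chr11:69326258-69333041, encodes the third Kv-beta subunit, a cytoplasmic partner of Kv1 pores. It had 20.7, 19.9, 20.9 and 20.4 scaled CPM in B6N knockouts, against 24.7, 26.7, 23.2 and 26.0 in B6N mice. All knockout values were below all B6N values, with a 1.23-fold fall (log2 -0.30 ± 0.05 SE, edgeR adjusted p = 0.00122), and no left-out library ended the call. Part of its signal came from retained-intron transcripts, of which Kcnab3-203 held 24.7% ± 7.4 of the gene's TPM in knockouts and 28.3% ± 7.3 in B6N mice (SD, n = 4 each). Counted over protein-coding transcripts alone, Kcnab3 fell short of the threshold (log2 -0.27, edgeR adjusted p = 0.184).

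Kcnip2, at chr19:45792346-45816422, encodes a calcium-binding subunit of Kv4 channels. It had 69.7, 64.8, 68.6 and 65.8 scaled CPM in B6N knockouts, against 75.5, 76.3, 75.1 and 78.8 in B6N mice, again with no overlap. The 1.14-fold fall (log2 -0.19 ± 0.05 SE, edgeR adjusted p = 0.0397) was lost with any 1 of the 8 libraries left out, at adjusted p of 0.0584 to 0.166. The Kv4 pores it binds were not called, with log2 fold changes of -0.05 for Kcnd2 and -0.01 for Kcnd3. Without single libraries, the number of members called was 2 without B6N mouse 1, knockout mouse 2 or knockout mouse 3, and 3 without B6N mouse 2, 3 or 4. Kcnt2 and Kcnab3 were called in each of those fits, and 7 members were called without knockout mouse 4. Over the 8 fits with a library left out, calls among all genes ranged from 262 to 751, against 481 with all libraries. With a transcript-length offset Kcnt2 alone of the 5 passed, the edgeR adjusted p being 0.267 for Kcnma1, 0.196 for Kcnh7, 0.103 for Kcnab3 and 0.233 for Kcnip2. In a non-robust fit Kcnh7 and Kcnip2 were at 0.0568 and 0.0799, and over protein-coding transcripts alone Kcnip2 was at 0.386.

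Across roles, 10 of the 12 accessory genes were below 0 in B6N knockouts, with a median log2 fold change of -0.10, against -0.00 for all genes. The 2 that passed, Kcnab3 and Kcnip2, did not pass over protein-coding transcripts alone. Of all 25151 genes 1.91% passed, and no count of signs was tested. All 3 Kv-beta genes were below 0, with Kcnab2 at -0.11 and Kcnab1 at -0.08 not called. Of the 9 two-pore genes 7 were above 0, and of the 13 inward rectifiers 5 were, with none called in either class. The silent subunit Kcns2 was next to the threshold at log2 0.28 ± 0.07 SE (edgeR adjusted p = 0.0627). Of the Kv3 genes, Kcnc1, Kcnc2 and Kcnc4 did not pass, with log2 fold changes of 0.01, -0.13 and 0.03.

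In the same libraries, 1 of 13 markers of inhibitory interneurons rose (Cox6a2) and 6 fell (Htr3a, Ndnf, Syt2, Reln, Gad1 and Erbb4). The markers' summed level was 704 to 734 scaled CPM in B6N knockouts and 768 to 836 in B6N mice, with none at 0 in all libraries of a group. Their part in the members' differences was not tested. The 8 markers of neurons in general had 1 call, a fall of Tubb3.

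The start regions of the called genes are shown because these genes changed in the same comparison. RefSeq's GRCm38.p6 table matched 54 of the 77 members, and 4 of the 5 genes called in B6N knockouts had an entry, given here from 250 bases before to 50 bases after the annotated start, 5′ to 3′ on the gene's strand. The entries lie at chr1:140245468-140245767 (plus strand) for Kcnt2, chr14:24004156-24004455 (minus strand) for Kcnma1, chr2:63184238-63184537 (minus strand) for Kcnh7 and chr19:45816014-45816313 (minus strand) for Kcnip2. For Kcnt2, Kcnma1 and Kcnip2 the start used for these entries lies inside the gene bounds given above. The Kcnma1 and Kcnip2 windows lie wholly within those bounds. Capitals mark GGGCGG, the GC box bound by Sp1 family factors, read on either strand.
Kcnt2: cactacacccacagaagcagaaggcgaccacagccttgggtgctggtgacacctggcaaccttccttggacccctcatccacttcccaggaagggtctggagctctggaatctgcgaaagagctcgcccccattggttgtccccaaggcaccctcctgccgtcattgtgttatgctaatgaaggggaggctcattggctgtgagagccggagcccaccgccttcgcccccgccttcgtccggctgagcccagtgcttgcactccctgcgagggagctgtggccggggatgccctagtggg
Kcnma1: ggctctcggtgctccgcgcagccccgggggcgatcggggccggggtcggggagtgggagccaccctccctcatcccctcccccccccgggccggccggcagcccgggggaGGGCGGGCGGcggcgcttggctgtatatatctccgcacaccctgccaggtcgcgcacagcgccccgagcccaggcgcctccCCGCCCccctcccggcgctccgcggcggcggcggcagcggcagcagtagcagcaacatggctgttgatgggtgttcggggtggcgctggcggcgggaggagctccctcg
Kcnh7: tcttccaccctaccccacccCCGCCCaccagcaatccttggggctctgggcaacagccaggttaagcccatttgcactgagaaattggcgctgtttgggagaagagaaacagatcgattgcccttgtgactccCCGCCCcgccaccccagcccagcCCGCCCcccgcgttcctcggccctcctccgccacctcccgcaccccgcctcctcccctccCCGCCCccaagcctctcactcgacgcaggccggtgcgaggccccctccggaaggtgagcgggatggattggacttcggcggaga
Kcnip2: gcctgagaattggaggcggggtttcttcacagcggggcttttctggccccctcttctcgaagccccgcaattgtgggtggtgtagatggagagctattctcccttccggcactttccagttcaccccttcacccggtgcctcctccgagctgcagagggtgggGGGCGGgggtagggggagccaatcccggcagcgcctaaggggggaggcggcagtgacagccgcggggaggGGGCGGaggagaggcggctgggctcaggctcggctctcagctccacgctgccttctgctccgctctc

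GGGCGG occurred 3 times in the Kcnma1 window, 4 times in Kcnh7, 2 times in Kcnip2 and not in Kcnt2. It was found in 30 of the 54 members' windows (55.6%), against 35.9% of 27025 promoter windows of the same length. Of the other motifs searched on both strands, TGATGNAA, a composite site of C/EBP and ATF factors, was in 0 of the members' windows and 4.06% of all windows. TGACGTCA, the cyclic AMP response element, was in 0 and 1.88%, CACGTG in 3 (5.56%) and 7.24%, and TATAAA in 2 (3.70%) and 14.2%. No motif contains another, and a match describes the window and no more.

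**Figure D2:**
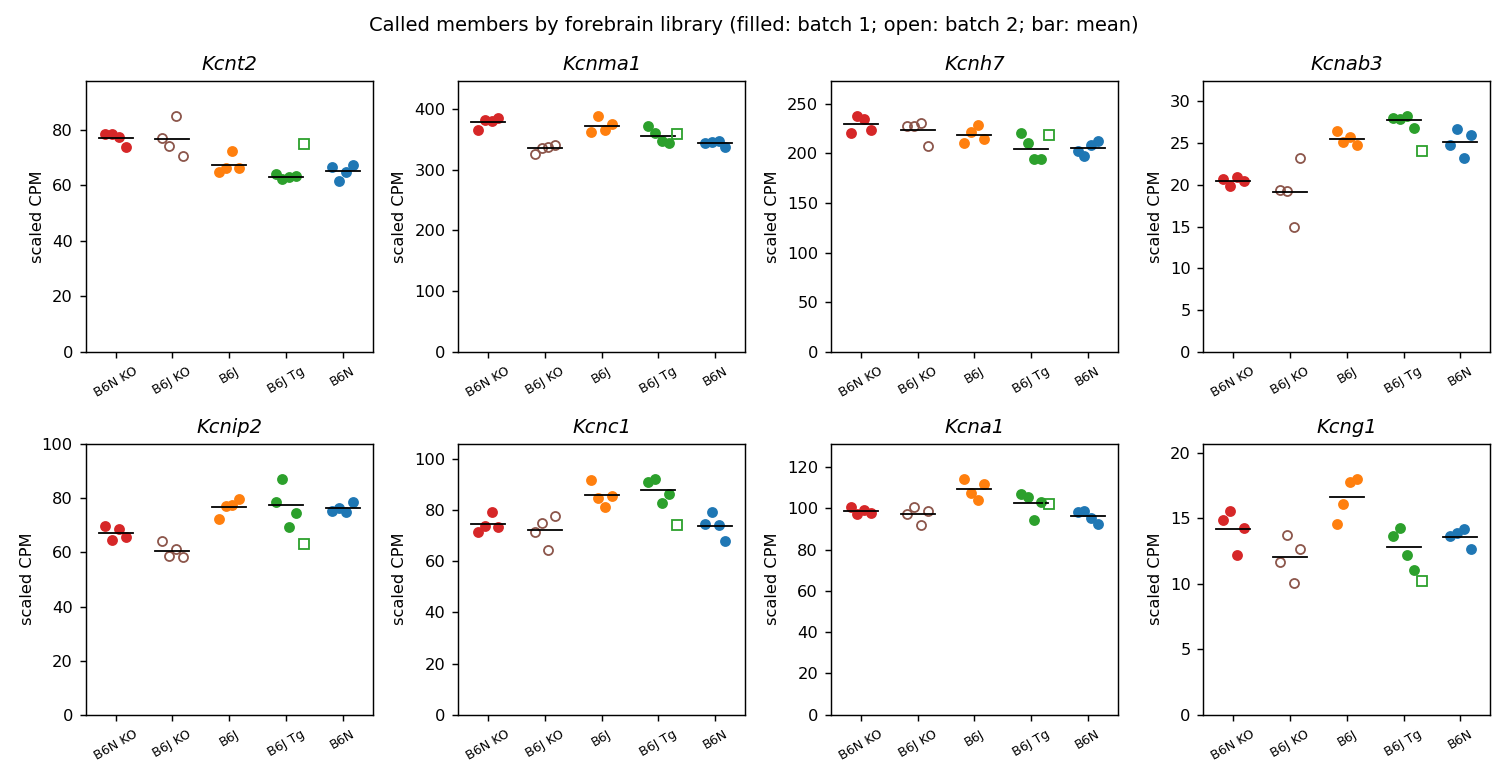
Scaled CPM of 8 members called in forebrain, with 1 point per library and groups from left to right B6N knockout, B6J knockout, B6J, transgenic and B6N. Filled points are batch 1, open circles batch 2, the open square is the repeat library of transgenic mouse 4, and bars are group means without that repeat. Kcnt2 lies at 73.9 to 78.5 in B6N knockouts, above 61.4 to 67.4 in B6N mice.

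The B6J knockouts were read against transgenic and against B6J mice, in a fit of all 21 forebrain libraries with a batch term that rests on the 2 libraries of transgenic mouse 4. No member passed the threshold in either comparison, where 0.607% and 0.0945% of 27500 genes did. By edgeR, 9 of 77 members against transgenic mice and 6 against B6J mice had an unadjusted p under 0.05. Of all 27500 genes 3049 and 2120 did. DESeq2 called 0 members in both, and 482 and 147 of all 43995 genes. The smallest p values belonged to Kcnc2 and Kcnj8 against transgenic mice, and to Kcnq1 and Kcnj8 against B6J mice, with Kcnma1 after them.

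Kcnc2 had 86.9, 89.3, 79.0 and 90.2 scaled CPM in B6J knockouts, against 95.8, 111, 112 and 102 in the batch 1 transgenic libraries and 109 in the repeat library. The groups did not overlap, and the fitted difference was log2 -0.34 ± 0.10 SE (edgeR adjusted p = 0.123). Without transgenic mouse 1 it was -0.38 with an edgeR adjusted p of 0.0190, the only such fit in which a member was called. That fit called 365 of all 27433 genes, against 167 of 27500 with all libraries. Kcnj8, a pore of ATP-sensitive channels known from smooth muscle and pericytes, had 2.21, 2.54, 3.05 and 2.91 scaled CPM in B6J knockouts, against 1.85, 2.14, 2.54 and 3.35 in batch 1 transgenic libraries. These ranges overlapped, and the fitted log2 of 1.01 ± 0.34 SE (edgeR adjusted p = 0.187) carries the batch term set by transgenic mouse 4, at 3.35 in batch 1 and 1.86 in batch 2. Against B6J mice, at 2.59, 2.71, 3.18 and 2.17, Kcnj8 overlapped as well, with a fitted log2 of 0.88 ± 0.38 SE (edgeR adjusted p = 0.561).

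Kcnq1, a Kv7 pore better known from heart and ear, had 0.836, 0.571, 0.745 and 0.697 scaled CPM in B6J knockouts, against 0.929, 1.22, 1.24 and 1.12 in B6J mice, with a fitted log2 of -1.67 ± 0.52 SE (edgeR adjusted p = 0.308). Kcnq1 passed the 1 CPM limit through the B6J and B6N libraries, so a lower value in B6J knockouts is in part set by that limit and is a description. That fitted size again leans on transgenic mouse 4, whose libraries gave 0.462 in batch 1 and 0.976 in batch 2. Kcnma1 was at log2 -0.18 ± 0.08 SE against B6J mice (edgeR adjusted p = 0.561).

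The members that rose or fell in B6N knockouts had their own values here. Kcnab3 had 19.4, 19.2, 14.9 and 23.2 scaled CPM in B6J knockouts, against 28.0, 27.9, 28.2 and 26.7 in batch 1 transgenic libraries and 24.0 in the repeat library, with no overlap. Its fitted log2 was -0.33 ± 0.14 SE (edgeR adjusted p = 0.342). Kcnt2 had 77.1, 73.9, 84.7 and 70.5 in B6J knockouts, against 64.0, 62.1, 63.0 and 63.2 in batch 1 transgenic libraries, but the batch 2 repeat of transgenic mouse 4 stood at 74.7, inside the knockout range. Its fitted log2 was 0.07 ± 0.09 SE, and an interval of 2 SE on either side ran from -0.11 to 0.26.

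Tested directly, the B6J knockout effect minus the B6N knockout effect passed for 0 members, where 0.229% of genes passed. By edgeR 11 of 77 members had an unadjusted p under 0.05, as did 2694 of all 27500 genes. DESeq2 called 1 member, Kcnma1, and 298 of all 43995 genes. Kcnma1 had 327, 335, 338 and 340 scaled CPM in B6J knockouts, and the difference of effects was log2 -0.25 ± 0.08 SE (edgeR adjusted p = 0.181). Kcna2, a Kv1 pore of axons, came second at -0.25 ± 0.08 SE (edgeR adjusted p = 0.248). With the 3 Xist-positive B6J knockouts left out, 0 members were called in these 3 comparisons, but 1 B6J knockout then remained, whose spread is assumed to be that of the other groups, so the count says nothing about sex. Without B6N knockout mouse 4, Kcns2 was called in the difference of effects, at -0.50 with an adjusted p of 0.0457.

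When both the batch term and the repeat library were left out, 19 members differed between B6J knockout and transgenic mice (4 higher, 15 lower), where 3615 of all 25341 genes did. Between B6J knockout and B6J mice 27 members differed (3 higher, 24 lower), where 3302 of all 25341 genes did. Kcnc1, Kcnc2 and Kcnc4 were then lower in B6J knockouts than in transgenic mice, at log2 -0.28, -0.28 and -0.29. That fit changed 2 choices together, and batch and B6J knockout cannot be told apart in it.

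Kcnj13, an inward rectifier of transporting epithelia that is strongly expressed in choroid plexus, had 9.25, 7.36, 9.14 and 7.20 scaled CPM in B6J knockouts, against 7.73, 2.32, 3.80 and 2.59 in B6J, 3.26, 2.25, 3.59 and 4.10 in batch 1 transgenic and 5.07, 4.69, 3.23 and 4.41 in B6N libraries. The B6J value of 7.73 lay among the B6J knockouts, and the fitted log2 against transgenic mice was 1.59 ± 0.63 SE (edgeR adjusted p = 0.339). Ttr, a secreted product of choroid plexus, was at 498, 347, 428 and 373 scaled CPM in B6J knockouts and at 428, 1.77, 0.898 and 0.764 in B6J libraries, so the same B6J library was high for both genes. The 13 choroid plexus markers summed to 798 to 1055 scaled CPM in B6J knockouts, against 192 to 929 in B6J, 212 to 288 in transgenic and 205 to 471 in B6N mice, and their part in the Kcnj13 values was not tested.

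**Figure D3:**
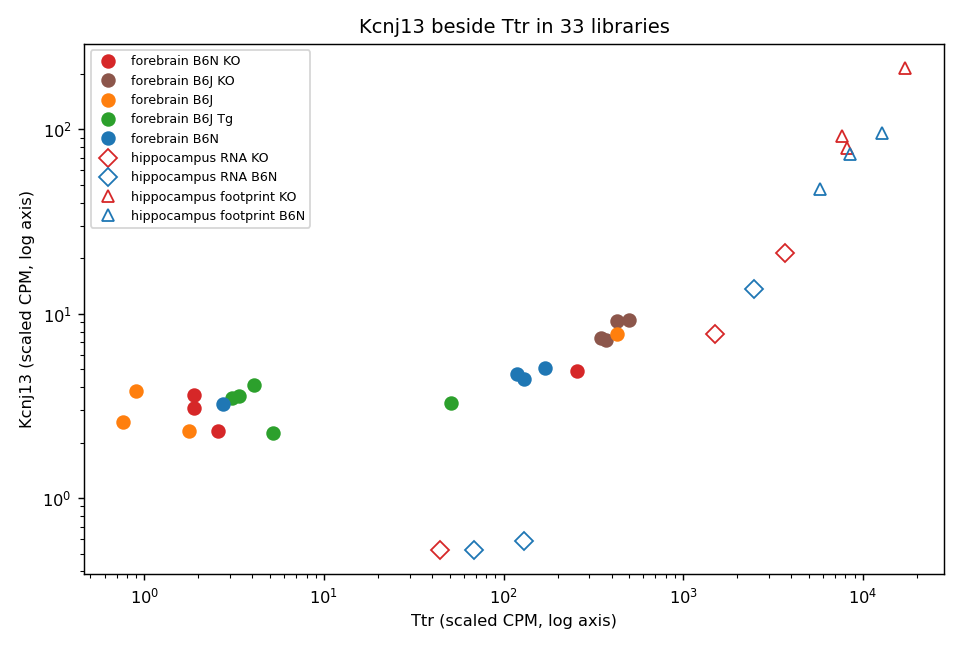
Kcnj13 against the choroid plexus gene Ttr in all 33 libraries, both in scaled CPM on log axes, with colour for genotype and shape for tissue and assay. Forebrain libraries with Ttr under 6 hold Kcnj13 at 2.25 to 4.10, and the footprint libraries lie at the top right with Kcnj13 at 47.3 to 215.

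The effect of the B6J allele was read against transgenic mice, which carry an added intact copy. Kcng1, a silent subunit, rose in B6J mice and was the 1 member called, where 0.25% of all genes were. It had 14.5, 16.1, 17.8 and 18.0 scaled CPM in B6J mice, against 13.6, 14.3, 12.2 and 11 in transgenic mice. The lowest B6J library was just above the highest transgenic library, and the fold change was 1.30 (log2 0.38 ± 0.09 SE, edgeR adjusted p = 0.0491). The call was lost without B6J mouse 2, 3 or 4 or transgenic mouse 3 or 4, at adjusted p of 0.0967, 0.187, 0.209, 0.143 and 0.206, which left 0 members called. It was also lost in a non-robust fit, over protein-coding transcripts alone and with a transcript-length offset, at 0.0984, 0.102 and 0.499, while 2 and 4 members were called without B6J mouse 1 and transgenic mouse 1. Calls among all genes were 112 and 196 in these last fits, against 63 with all libraries. They were 24, 16, 34, 36 and 29 without B6J mouse 2, 3 or 4 or transgenic mouse 3 or 4.

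Kcnf1, another silent subunit, had 89.4, 93.6, 108 and 105 scaled CPM in B6J mice, against 90.5, 81.8, 81.4 and 73.8 in transgenic mice. The groups overlapped by 1 library, and the log2 of 0.27 ± 0.06 SE missed the threshold (edgeR adjusted p = 0.0554). Of the 77 members 48 were above 0, with a median of 0.04, against -0.00 for all genes. The Kv3 genes Kcnc1, Kcnc2 and Kcnc4 were slightly below 0, at -0.03, -0.09 and -0.07, and did not pass. For Kcnc1, an interval of 2 SE on either side ran from -0.13 to 0.06.

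The B6N knockout effect minus the B6J effect sets the full loss in B6N mice against the B6J allele read against transgenic mice. Substrain and n-Tr20 level cannot be told apart in it. This difference passed for 0 members, where 0.0596% of genes passed. By edgeR 12 of 77 members had an unadjusted p under 0.05 (3 higher, 9 lower), as did 2062 of all 25151 genes. DESeq2 called 0 members and 41 of all 42988 genes. Kcnt1, a sodium-activated channel known as Slack, was first at log2 -0.21 ± 0.07 SE (edgeR adjusted p = 0.30), and Kcna4, an inactivating Kv1 pore, second at 0.18 ± 0.06 SE (edgeR adjusted p = 0.389). Without transgenic mouse 1 Kcnt1 was called, at -0.27 with an adjusted p of 0.0254. For Kcnt2 the difference was 0.15 ± 0.06 SE (edgeR adjusted p = 0.469).

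The substrains were compared in B6J against B6N mice and in transgenic against B6N mice, which share the B6N libraries with each other and with the B6N knockout comparison. B6J and B6N mice differ in n-Tr20 as well as in substrain, which the first comparison cannot tell apart. In B6J mice 5 members were called, among which Kcnc1, Kcna1 and Kcnma1 rose and Kcne4 fell, where 1.73% of all genes were called, 1.21% higher and 0.513% lower. In transgenic mice Kcnc1 rose and was the 1 member called, where 0.366% of all genes were, so Kcna1, Kcnma1 and Kcne4 were not called there. Most members stood slightly higher than in B6N: 53 of 77 in B6J mice, with a median log2 of 0.06, and 48 of 77 in transgenic mice, with a median of 0.04, while all genes had medians of -0.00 and 0.00.

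Kcna1, a low-threshold Kv1 pore of axons, had 114, 107, 104 and 112 scaled CPM in B6J mice, against 98.4, 98.9, 95.3 and 92.5 in B6N mice. Its groups did not overlap, with a fold change of 1.14 (log2 0.19 ± 0.04 SE, edgeR adjusted p = 0.00896), or an adjusted p of 0.0541 without B6N mouse 4.

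Kcnc1, at chr7:46396219-46438706, had 91.7, 84.8, 81.2 and 85.4 scaled CPM in B6J and 91.0, 92.2, 82.7 and 86.3 in transgenic mice, against 74.6, 79.2, 74.1 and 67.9 in B6N mice. Both groups were above every B6N library, at log2 0.22 ± 0.05 SE in B6J (edgeR adjusted p = 0.00814) and 0.25 ± 0.05 SE in transgenic mice (edgeR adjusted p = 0.00444). Without B6N mouse 4, the lowest library, the edgeR adjusted p values were 0.0620 and 0.0529, which left 1 member called in B6J and 0 in transgenic mice. Calls among all genes fell in those fits too, from 434 to 226 and from 92 to 56. B6N knockouts, at 71.6, 73.8, 79.4 and 73.3, overlapped the B6N range, and the batch 2 repeat of transgenic mouse 4 stood at 74.3 beside 86.3 in batch 1. Its transcript Kcnc1-203 took 52.1% ± 6.3 of the gene's TPM in B6J and 51.3% ± 2.9 in B6N mice (SD, n = 4 each).

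Of the other Kv3 genes, Kcnc2 had 97.0, 102, 94.2 and 99.9 scaled CPM in B6J and 95.8, 111, 112 and 102 in transgenic mice, against 95.3, 98.3, 102 and 96.0 in B6N mice. Both groups overlapped B6N, and the log2 was 0.01 ± 0.05 SE in B6J and 0.10 ± 0.05 SE in transgenic mice (edgeR adjusted p = 0.953 and 0.524). Kcnc4 was at -0.01 in B6J and 0.06 in transgenic mice. Without transgenic mouse 3, 2 members were called in transgenic against B6N mice, where 117 of all 25469 genes were, against 92 of 25151 with all libraries.

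Kcnma1 had 363, 388, 365 and 376 scaled CPM in B6J mice, against 343, 346, 347 and 338 in B6N mice. It was 1.09-fold higher (log2 0.12 ± 0.03 SE, edgeR adjusted p = 0.0436), and leaving out any of the 8 libraries other than B6J mouse 1 raised the adjusted p to between 0.0511 and 0.172. Kcne4, a MinK-related accessory subunit near the expression limit, had 0.831, 0.774, 0.484 and 1.06 in B6J mice, against 1.29, 1.42, 1.51 and 1.54 in B6N mice. The 1.80-fold fall (log2 -0.84 ± 0.22 SE, edgeR adjusted p = 0.0425) was lost in 7 of the 8 fits with a library left out, at 0.0571 to 0.146, and in those fits 3 members were called without B6N mouse 1 or 2 or B6J mouse 2 or 3. Calls among all genes without these mice were 283, 364, 285 and 309, against 434 with all libraries. With a transcript-length offset Kcnc1 alone of the 5 passed, the edgeR adjusted p being 0.142 for Kcna1, 0.0946 for Kcne4 and 0.201 for Kcnma1. Over protein-coding transcripts alone Kcne4 and Kcnma1 were at 0.0523 and 0.0777.

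Marker genes of other regions and cells also differed between these groups. In B6J against B6N mice, 3 of 14 striatal markers rose (Drd2, Drd1 and Rarb), with a summed level of 1131 to 1276 scaled CPM in B6J and 976 to 1058 in B6N mice. In transgenic against B6N mice 0 of the striatal markers were called, with a sum of 928 to 1268 in transgenic mice. Of 13 interneuron markers 2 rose (Syt2 and Slc32a1), and in transgenic against B6N mice 3 rose (Syt2, Gad1 and Sst), with sums of 827 to 918 in B6J, 856 to 890 in transgenic and 768 to 836 in B6N mice. Of 11 meningeal markers 2 fell in B6J mice (Dcn and Ogn) and 0 were called in transgenic mice, with sums of 77.9 to 104 in B6J, 86.9 to 127 in transgenic and 106 to 136 in B6N mice. No marker of these lists was at 0 in all libraries of a group, and their part in the members' differences was not tested. Among 20 genes whose products bind or anchor these channels, of which 19 were tested, Ank3, the ankyrin that anchors Kv7 channels at the axon initial segment, rose in B6J at log2 0.22 ± 0.04 SE (edgeR adjusted p = 0.00334) and in transgenic mice at 0.20 ± 0.04 SE (edgeR adjusted p = 0.0245). Adam23 of that list was lower in B6J knockouts than in transgenic mice at -0.36 ± 0.08 SE (edgeR adjusted p = 0.0267), and no other of its genes was called in any comparison.

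**Figure D4:**
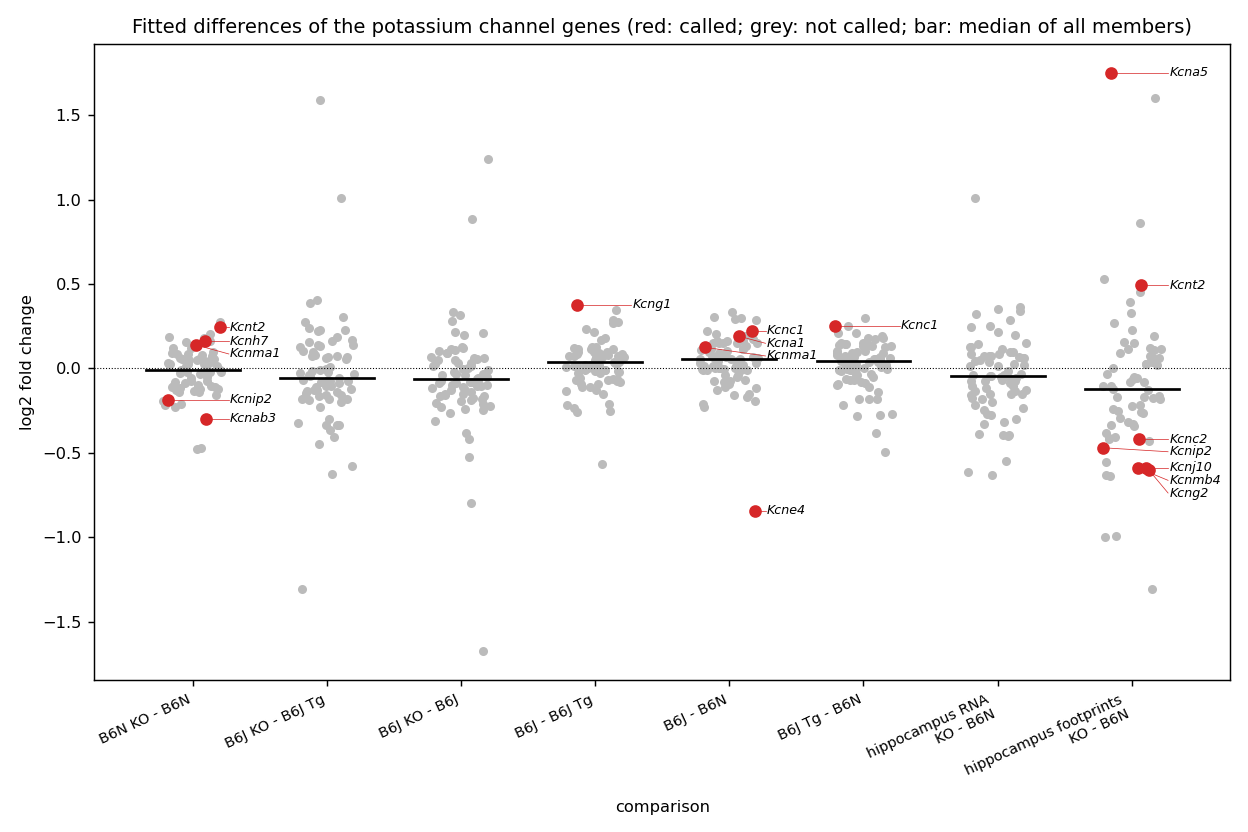
Fitted log2 fold change of 74 members in 8 comparisons, named on the horizontal axis. Red points with names passed an adjusted p of 0.05, grey points did not, and bars mark the median of all members, which is -0.01 for B6N knockout against B6N forebrain and -0.12 for the footprints.

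In B6N knockout against B6N hippocampus RNA, no member was called, where 0.0413% of 19352 genes were. By edgeR 11 of 77 members had an unadjusted p under 0.05 (3 higher, 8 lower), as did 1535 of all 19352 genes. DESeq2 called 1 member, Kcnj10, and 132 of all 35477 genes. Kcnj10 had 164, 188 and 170 scaled CPM in knockouts, against 225, 248 and 210 in B6N mice, with no overlap (log2 -0.39 ± 0.08 SE, edgeR adjusted p = 0.245). Kcnt2 had 37.9, 34.0 and 39.2 in knockouts, against 27.2, 28.6 and 31.6 in B6N mice, also with no overlap (log2 0.34 ± 0.08 SE, edgeR adjusted p = 0.354). Kcnab3 had 19.8, 21.2 and 21.5 in knockouts, against 22.7, 31.2 and 28.2 in B6N mice (log2 -0.40 ± 0.11 SE, edgeR adjusted p = 0.403).

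These 3 genes were called with no filter on low counts, at edgeR adjusted p of 0.000707 for Kcnj10, 0.0310 for Kcnt2 and 0.0311 for Kcnab3. In that fit 135 of all 35477 genes were called. Of the 12 accessory genes 10 were below 0, and Kcnip2, at 202, 252 and 209 in knockouts and 222, 190 and 212 in B6N mice, overlapped. The median log2 was -0.05 for the 77 members and 0.00 for all genes, and the count of signs was not tested. Of 13 interneuron markers 1 fell (Ndnf), and their summed level was 727 to 841 scaled CPM in knockouts and 991 to 1044 in B6N mice. Their part in the members' values was not tested.

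Ribosome footprints, the fragments of mRNA protected by translating ribosomes, differed for more members. In knockout hippocampus Kcnt2 and Kcna5 rose and Kcnc2, Kcng2, Kcnj10, Kcnip2 and Kcnmb4 fell among the 8 members called of the 72 that passed the count filter, where 5.35% of 13227 genes were called, 2.19% higher and 3.16% lower. The 5 members that did not pass the filter were Kcne4, Kcnj14, Kcnj5, Kcnk6 and Kcnq1. Of the 72, 27 were above 0 and 45 below, with a median log2 of -0.12, against 0.00 for all genes.

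Kcnt2 had 88.9, 85.6 and 84.0 scaled CPM of footprints in knockouts, against 61.2, 66.3 and 57.3 in B6N mice. The groups lay well apart, with a fold change of 1.41 (log2 0.49 ± 0.10 SE, edgeR adjusted p = 0.0156), and the adjusted p was 0.110 without B6N sample 3 and 0.0682 without knockout sample 2. Kcna5, a Kv1 pore, had 4.79, 2.11 and 2.04 in knockouts, against 1.10, 0.870 and 0.801 in B6N mice. Its fold change of 3.36 (log2 1.75 ± 0.46 SE, edgeR adjusted p = 0.0439) rested on knockout sample 1, the footprint sample lowest in Ddx3y, without which log2 was 1.16, and the part of sex was not tested. In a non-robust fit its adjusted p was 0.0543, and the call was lost in 5 of 6 fits with a sample left out, at 0.0671 to 0.205.

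Among the Kv3 genes, Kcnc2 had 54.2, 52.9 and 58.9 scaled CPM of footprints in knockouts, against 67.2, 84.8 and 71.2 in B6N mice. Every knockout value was below every B6N value, with a 1.34-fold fall (log2 -0.42 ± 0.11 SE, edgeR adjusted p = 0.0418), or an adjusted p of 0.0532 in a non-robust fit. Kcnc1 had 78.0, 70.8 and 77 in knockouts, against 85.1, 90.3 and 93.4 in B6N mice, which did not overlap but missed the threshold (log2 -0.24 ± 0.09 SE, edgeR adjusted p = 0.139). Kcnc4 had 20.2, 16.1 and 19.9 in knockouts, against 15.7, 27.1 and 24.7 in B6N mice, which overlapped (log2 -0.25 ± 0.20 SE).

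Footprints of Kcng2, a silent subunit, were at 24.8, 24.6 and 25.6 scaled CPM in knockouts, against 34.8, 35.2 and 44.3 in B6N mice, a 1.52-fold fall (log2 -0.60 ± 0.13 SE, edgeR adjusted p = 0.0230). All 4 Kv6 genes were below 0. Footprints of the astrocytic Kcnj10 were at 112, 88.5 and 93.8 in knockouts, against 122, 156 and 168 in B6N mice, a 1.5-fold fall (log2 -0.59 ± 0.13 SE, edgeR adjusted p = 0.0232). Neither gene's groups overlapped, and of the 10 astrocyte markers 1 fell (Aldoc), with sums of 5476 to 5815 scaled CPM in knockouts and 5989 to 6891 in B6N mice, whose part was not tested.

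The accessory genes Kcnip2 and Kcnmb4, a KChIP and a BK beta subunit, also fell in footprints. Kcnip2 had 37.6, 37.3 and 44.3 scaled CPM in knockouts, against 57.4, 48.6 and 59.5 in B6N mice, a 1.39-fold fall (log2 -0.47 ± 0.12 SE, edgeR adjusted p = 0.0356). Kcnmb4 had 10.9, 13.2 and 12 in knockouts, against 17.9, 18.3 and 18.1 in B6N mice, a 1.5-fold fall (log2 -0.59 ± 0.16 SE, edgeR adjusted p = 0.0456). Neither gene's groups overlapped. Kcnmb4 overlaps the antisense genes Kcnmb4os1 and Kcnmb4os2, and its forebrain change was not called.

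The footprint calls depended on single samples. With a sample left out, the number of members called was 1 without B6N sample 2, 0 without B6N sample 3, 5 without knockout sample 1 and 0 without knockout sample 2, against 8 with all samples. Calls among all genes fell too, from 708 with all samples to 152, 32, 264 and 59 in those fits. Without B6N sample 1, 1 member was called higher and 5 lower, with 916 of all genes called. Without knockout sample 3, 2 members were called higher and 4 lower, with 799 of all genes called. The adjusted p of Kcnmb4 was above 0.05 in all 6 such fits, at 0.0649 to 0.183. For Kcng2 it was 0.0565, 0.154 and 0.0886 without B6N sample 2, B6N sample 3 and knockout sample 2. For Kcnc2 it was 0.183, 0.136, 0.0864 and 0.149 without B6N samples 2 and 3 and knockout samples 1 and 2. For Kcnj10 it was 0.0751, 0.127, 0.102 and 0.0511 without B6N samples 2 and 3 and knockout samples 2 and 3. For Kcnip2 it was 0.0656, 0.0570, 0.194, 0.0864 and 0.137 without B6N samples 1, 2 and 3 and knockout samples 1 and 2.

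Other cell markers moved in the footprints too. Of 14 striatal markers 6 rose (among them Penk, Gpr6, Rgs9, Drd1 and Pde10a), with sums of 356 to 567 scaled CPM in knockouts and 293 to 339 in B6N mice. Of 13 interneuron markers 3 fell (Htr3a, Pvalb and Sst), with sums of 1548 to 1705 in knockouts and 1743 to 1891 in B6N mice. Of 9 excitatory neuron markers 3 fell (Slc17a7, Nrgn and Neurod2), with sums of 5607 to 5845 in knockouts and 6257 to 6920 in B6N mice. Of 10 microglia markers, 9 of them tested, 4 fell (C1qa, C1qb, C1qc and Cx3cr1), with sums of 575 to 598 in knockouts and 653 to 775 in B6N mice. Of 11 oligodendrocyte markers 2 fell (Mbp and Mobp), with overlapping sums of 3978 to 4762 in knockouts and 4025 to 5169 in B6N mice, and of 8 hippocampal markers 1 fell (Prox1). No marker of these lists was at 0 in all libraries of a group, and their part in the members' footprint differences was not tested.

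**Figure D5:**
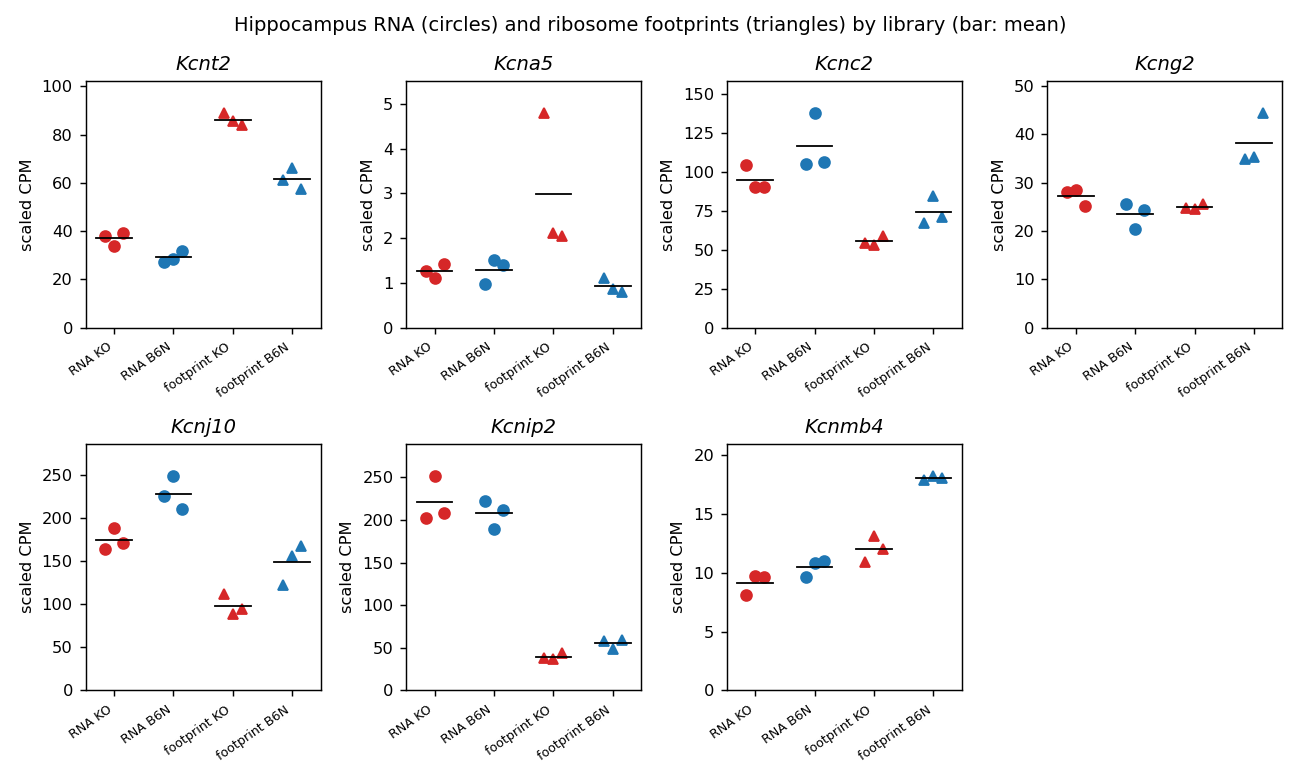
Scaled CPM of 7 members called in footprints, with 1 point per library and groups from left to right RNA of B6N knockout, RNA of B6N, footprints of B6N knockout and footprints of B6N. Kcnt2 footprints lie at 84.0 to 88.9 in knockouts, above 57.3 to 66.3 in B6N mice.

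Whether footprints changed beyond RNA was tested as an interaction of assay and genotype. No member passed, and neither did any of the 15202 genes tested (0%). By edgeR 9 of 77 members had an unadjusted p under 0.05 (3 higher, 6 lower), as did 2251 of all 15202 genes. DESeq2 called 3 members, Kcng2 and Kcnip2 among them, and 492 of all 18930 genes. Kcng2 was first at log2 -0.84 ± 0.16 SE (edgeR adjusted p = 0.0565), its RNA being 28.0, 28.5 and 25.1 scaled CPM in knockouts and 25.5, 20.3 and 24.4 in B6N mice. Kcnip2 was second at -0.58 ± 0.15 SE (edgeR adjusted p = 0.113).

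Leaving out B6N footprint sample 1 or knockout footprint sample 3 brought Kcng2 to edgeR adjusted p of 0.0217 and 0.0359, with 3 and 2 members called. Calls among all genes rose in those fits too, to 301 of 15667 and 285 of 15675, from 0 of 15202 with all samples. Kcnc2 stood at -0.15 ± 0.16 SE (edgeR adjusted p = 0.726). For Kcnt2, whose RNA and footprints were both higher in knockouts, the interaction was 0.13 ± 0.12 SE, with an interval of 2 SE on either side of -0.12 to 0.37.

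On the map, n-Tr20 lies at chr1:173390329-173390402 of GRCm38. The nearest members are the inward rectifier genes Kcnj10, 1.02 Mb away, and Kcnj9, 1.06 Mb away, and Kcnt2 lies 32.8 Mb away. Kcnj10 fell in footprints as given above, while Kcnj9 was not called in any comparison, with log2 -0.15 ± 0.17 SE in hippocampus RNA and 0.12 ± 0.17 SE in footprints. Any part of the position in these values was not tested. Members that overlap another gene include Kcnmb1 within Kcnip1, Kcnq1 with Kcnq1ot1, Kcnab2 with Nphp4, Kcnh3 with Mcrs1, Kcnh7 with Gca and Kcnj13 with Gigyf2, and the hippocampus RNA kit does not mark the strand, so reads of opposite genes cannot be told apart there.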

How the data were processed

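Gene totals were made from estimated counts per transcript that the authors deposited for 138835 transcripts of each forebrain library, in the layout kallisto writes, summed per gene over all transcripts and rounded. TPM per length came from the TPM column that the authors deposited beside them. For hippocampus, whole-number counts per gene were deposited, RNA and footprints in separate files. Build mm10, featureCounts, Bowtie2 2.2.3, HISAT2 2.1.0 and kallisto 0.42.4 are listed per the submitters' processing notes, with no word on which made which file. How multi-mapped reads were shared is not given in the sources used here, so paralogs may exchange reads.

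Each comparison was fitted on the whole table with edgeR 4.0.16 (R 4.3.3): TMM scaling, filterByExpr with a minimum count of 10, robust quasi-likelihood F test, Benjamini-Hochberg adjustment over all genes, call at 0.05, 11 comparisons. The 16 batch 1 forebrain libraries were fitted together, all 21 with a batch term for the B6J knockouts, and hippocampus RNA and footprints each alone; footprints beyond RNA were the interaction in a joint fit. SE is the size of the log2 fold change divided by the square root of F. Scripts were tested on simulated data. Alternatives were DESeq2 1.42.0, other size factors, no count filter, a non-robust fit, protein-coding transcripts only, a transcript-length offset, the 2 groups alone, a replicate block, no batch term with the repeat library left out, and leaving out each library.

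Members, marker lists and the naming rule were chosen with earlier results of these data known. Named are the Kv3 genes, every called member, the 3 highest per class, the 2 smallest p values where none was called, extreme tissue ratios, genes at the expression limit, members with an outlying library and called partners; others were named after their values were seen. Some of the genes so chosen are not reported here. All 77 members were in the hippocampus files, of 54752 genes for RNA and 22523 for footprints. Counting error only is covered by depth; no 2 libraries of a group agreed within sampling noise (lowest chi-square per degree of freedom 2.92 of 46 pairs). A description of codon use was not run, since no coding sequences were used here. Levels of the tRNA itself were not analysed here.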

Additional observations from a re-analysis of the deposited data

Results flagged for a closer look

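In groups of 4 forebrain mice, 16 of 385 member and group combinations had 1 library standing apart by Dixon's test, which flags about 1 in 20 groups by chance. All values are scaled CPM, with the range of the other 3 libraries after them.

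Voltage-gated pores were outlying in 4 cases. Kcna3 was low in transgenic mouse 4 at 12 (others 12.6 to 12.7), Kcnc4 high in transgenic mouse 1 at 41.1 (32.6 to 33.8), Kcnh7 low in B6J knockout mouse 4 at 207 (227 to 231) and Kcnq3 high in B6J knockout mouse 2 at 225 (213 to 215). Among accessory and silent subunits, Kcne4 was low in transgenic mouse 2 at 0.925 (1.27 to 1.27), Kcnip1 high in transgenic mouse 3 at 17.3 (13.0 to 13.5), and Kcns1 low in B6N mouse 2 at 8.54 (9.38 to 9.52) and high in B6J mouse 3 at 12 (9.63 to 9.93).

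Among inward rectifiers, Kcnj14 was low in B6N knockout mouse 4 at 1.00 (1.64 to 1.75) and high in B6J mouse 3 at 1.66 (1.22 to 1.23), Kcnj2 was high in B6N mouse 4 at 26.9 (23.3 to 23.8) and Kcnj9 high in B6J mouse 4 at 98.5 (93.6 to 94.0). The two-pore genes Kcnk13 and Kcnk4 were low, at 4.21 in B6N mouse 1 (4.96 to 5.07) and at 5.93 in B6N knockout mouse 3 (7.48 to 7.64). Kcnn2, a small-conductance calcium-activated pore, was high in B6J mouse 1 at 35.9 (33.4 to 33.6), and Kcnt1 low in B6J knockout mouse 3 at 85.7 (101 to 104).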

How the results depend on the processing

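Counts of called members moved by more than 1.5 times under these settings, and the cause was not tested. B6N knockout against B6N forebrain, with 5, gave 3 in a non-robust fit, 1 with a length offset and 10 with the 2 groups alone. Calls among all genes there were 416 and 174 of 25151 and 702 of 24431, against 481 with the chosen settings. B6J against transgenic, with 1, gave 2 without a count filter, 2 by DESeq2, and 0 in a non-robust fit, with protein-coding transcripts only, with a length offset, with the replicate block and with the 2 groups alone. In that order, 106, 169, 46, 35, 6, 64 and 42 of all genes were called, against 63 with the chosen settings. B6J against B6N, with 5, gave 3 with protein-coding transcripts only, 1 with a length offset and 17 with the 2 groups alone, where 989 of all 24022 genes were called. With protein-coding transcripts only and with a length offset, 295 and 143 of all genes were called, against 434 with the chosen settings. Transgenic against B6N, with 1, gave 2 by DESeq2, where 133 of all 42988 genes were called, against 92 of 25151 with the chosen settings. From 0, B6J knockout gave 19 against transgenic and 27 against B6J mice with the batch term and the repeat library both left out, and the difference of knockout effects 7 in that fit and 1 by DESeq2. The fit without batch term called 3615, 3302 and 653 of all 25341 genes in these comparisons, in that order. For the difference of knockout effects DESeq2 called 298 of all 43995 genes. Hippocampus RNA gave 3 without a filter and 1 by DESeq2, footprints beyond RNA 1 without a filter and 3 by DESeq2, and footprints 5 of 8 with the replicate block, which lost Kcnc2, Kcna5 and Kcnmb4 at adjusted p of 0.0629, 0.0589 and 0.0657. Calls among all genes there were 135 and 132 in hippocampus RNA, 38 and 492 beyond RNA and 621 in footprints. With the chosen settings they were 8, 0 and 708. With a library left out, called members ranged over 2 to 7, 0 to 4, 1 to 7 and 0 to 2 in the first 4 comparisons, 0 to 1 for the difference of B6N and B6J effects, 0 to 1 and 0 to 0 for B6J knockouts against transgenic and B6J mice, 0 to 1 for the difference of knockout effects, 0 to 0 in hippocampus RNA, 0 to 6 in footprints and 0 to 3 beyond RNA. Calls among all genes moved in the same fits. In the same order they ranged over 262 to 751, 16 to 196, 216 to 426 and 53 to 176 in the first 4 comparisons. In the others they ranged over 3 to 78, 133 to 365, 10 to 29, 34 to 156, 0 to 10, 32 to 916 and 0 to 301. Kcnc4 in B6J knockouts against B6J mice reversed to log2 -0.23 with the batch term and the repeat library both left out. Pairing of libraries by replicate number was not shown, and the correlations of so few libraries cannot exclude it. In each of the 6 comparisons of 2 groups at least 1 pair correlated below 0.1, with all pairs between -0.45 and 0.28. Between RNA and footprints of hippocampus the 3 B6N pairs were at 0.11 to 0.18 and the knockout pairs at -0.23 to 0.15. In addition, leaving out transgenic mouse 4 with a batch term was not run, since its libraries set that term.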
